A study of Mus musculus with 6 samples.

Results

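Gpr83, Dapl1, Slc25a33, Emid1, Cited4, Eps8l1, Chd3 and Anxa2 are 8 genes out of the 23393 named in a table of normalized signals and the 24424 named in a table of read counts from mouse regulatory T cells. They were chosen by their signals in the normalized table, where they were among the genes that separated Bcl11b knockout (KO) from wild-type (WT) cells most firmly. That contrast is therefore described here with no test used as support, and it supports nothing by itself. All 8 genes were present in both tables and all passed the filter on low counts. When whole reads were recovered from the normalized signals, edgeR called 12 of 12253 genes tested (0.0979%) and DESeq2 called 379. The 8 genes were among the 12 called by edgeR, which follows from how they were chosen and is no evidence for them. Fcer1g, Cd160, Klrd1 and Lrrc32 were the other 4, and they ranked 1, 4, 6 and 8 by p in that fit, ahead of several of the 8. The last gene inside the edgeR limit was Anxa2. Its level was 259 and 258 CPM (read counts scaled to a common library size) in KO libraries and 92.9 and 120 CPM in WT libraries. The first gene outside it was Fcgr3, with 43.7 and 38.0 CPM in KO libraries and 7.78 and 10.9 CPM in WT libraries.

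Regulatory T cells express Foxp3 and hold immune responses in check; those used here were sorts from the spleen and the peripheral lymph nodes. The series asks what removing Bcl11b, a zinc finger protein that regulates transcription and is required for T cell development and identity, does to their transcriptome. Of the 3 groups of 2 libraries each, KO EAE and KO carried the strain label Bcl11bF/WT Foxp3YFP-Cre +/-, which names 1 floxed and 1 wild-type Bcl11b allele and a Cre recombinase driven by Foxp3, while their genotype label reads KO. WT carried Bcl11bF/F with no Cre named. KO EAE came from animals with experimental autoimmune encephalomyelitis, in which immunity to myelin causes a disease of the central nervous system like multiple sclerosis, and KO and WT were at steady state. WT cells from EAE were not analysed here, so KO EAE could be set against KO and against WT only. No label gives an age or says whether the replicates are different animals, and the spread between them may be technical.

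The count table held 15704030 and 15525373 reads in KO EAE libraries, 16904312 and 14663542 in KO libraries and 16512337 and 16501787 in WT libraries. Bcl11b itself stood at 404 and 278 CPM in KO EAE libraries, 371 and 370 CPM in KO libraries and 420 and 425 CPM in WT libraries, and its difference between KO and WT did not pass the test (log2 change -0.19, adjusted p = 0.527, edgeR). Without the exons of the floxed segment singled out, a total over the gene does not check the deletion. In the normalized table Bcl11b averaged 5978 ± 1085 in KO and 10944 ± 604 in WT (normalized signal, SD, n = 2). The authors' own comparison of KO with WT gave Bcl11b a log2 change of -0.80 that passed (adjusted p = 7.9e-08, DESeq2). By edgeR on the reads recovered from the normalized signals, Bcl11b was not called. The KO and WT libraries carry the same names in both tables, but not the same values. Across 11000 genes the rank correlation of same-named libraries between the tables was 0.839 to 0.869, against 0.975 to 0.991 for replicates within a table. KO libraries of the count table ranked closer to WT replicate 2 of the normalized table (0.849 and 0.846) than to their namesakes (0.839 and 0.840). Whether shared names stand for the same samples is not known. All tests were therefore made within a table, and sizes set side by side between the tables are descriptions only.

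Summed markers of other cell types also differed between the groups, and their part in the results below was not tested. T cell markers (7 of 8 listed genes present) summed to 1136 to 1177 CPM in KO EAE, 1089 to 1177 CPM in KO and 1180 to 1199 CPM in WT. The 5 regulatory T cell markers summed to 825 to 925 CPM in KO EAE, 843 to 854 CPM in KO and 1334 to 1401 CPM in WT. The 13 myeloid markers ran the other way, with 1485 to 1741 CPM in KO EAE, 1645 to 2021 CPM in KO and 266 to 288 CPM in WT. Natural killer cell markers showed the same order at lower levels, with 137 to 181 CPM in KO EAE, 157 to 173 CPM in KO and 56.2 to 61.4 CPM in WT. In the normalized table the myeloid markers summed to 1325 to 1498 CPM in KO and 406 to 692 CPM in WT. None of the markers in these 4 lists was at 0 in any group of the count table. In such bulk samples, fewer cells of a type and less RNA per cell cannot be told apart. Nor do such sums show whether the marker RNA came from other cells in a sort or from the regulatory T cells.

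**Figure D1:**
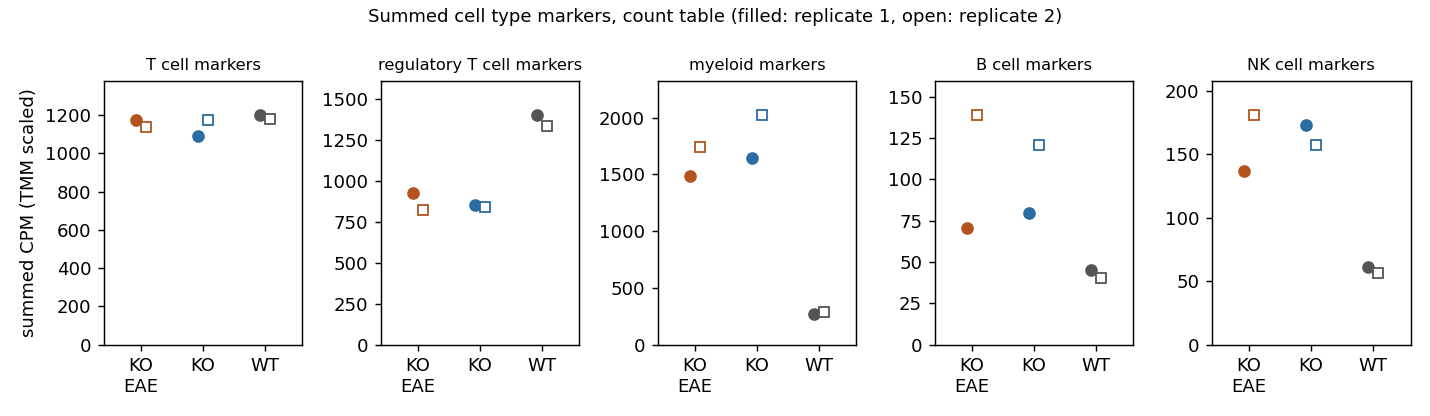
Summed CPM of 5 marker lists in the count table, by group on the x axis, with replicate 1 filled and replicate 2 open. Myeloid sums were 1485 to 2021 CPM in KO EAE and KO libraries and 266 to 288 CPM in WT libraries, while T cell marker sums were all between 1089 and 1199 CPM.

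The 8 genes belong to no single pathway. Gpr83 encodes a G protein-coupled receptor on the cell surface, is a known target of Foxp3 and marks mouse regulatory T cells. Chd3 encodes a helicase of the nucleosome remodelling and deacetylase complex (NuRD), a repressor complex with which Bcl11b associates. The others include a gene of resting T cells (Dapl1), a mitochondrial carrier (Slc25a33), a secreted matrix protein (Emid1), a transcriptional coactivator (Cited4), an actin-linked signalling adaptor (Eps8l1) and a calcium-dependent membrane-binding protein (Anxa2).

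The regions before the starts of 5 of the genes are shown for 3 reasons. Gpr83 had the largest log2 change of the 8 in KO EAE against WT, Dapl1 and Eps8l1 were the only pair among the 7 genes with a RefSeq promoter in the table used to hold a forkhead motif, the class bound by Foxp3 and its relatives, and Slc25a33 and Cited4 held the motif TGACCA, known in human cells for BCL11A, the close relative of Bcl11b. Each is the 250 bases before a RefSeq start on build GRCm38.p6, 5′ to 3′ on the strand of the gene, with matches to TGTTTAC (forkhead), TGACCA and GGGCGG (GC box), on either strand, in capitals. They lie at chr9:14859960-14860209 (Gpr83, plus strand), chr2:59484403-59484652 (Dapl1, plus strand), chr7:4460447-4460696 (Eps8l1, plus strand), chr4:149774268-149774517 (Slc25a33, minus strand) and chr4:120666313-120666562 (Cited4, plus strand).
Gpr83: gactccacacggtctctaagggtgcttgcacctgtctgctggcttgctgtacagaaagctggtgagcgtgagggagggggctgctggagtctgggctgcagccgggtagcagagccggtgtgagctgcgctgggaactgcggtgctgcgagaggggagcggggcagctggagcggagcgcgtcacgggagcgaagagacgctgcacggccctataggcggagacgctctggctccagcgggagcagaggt
Dapl1: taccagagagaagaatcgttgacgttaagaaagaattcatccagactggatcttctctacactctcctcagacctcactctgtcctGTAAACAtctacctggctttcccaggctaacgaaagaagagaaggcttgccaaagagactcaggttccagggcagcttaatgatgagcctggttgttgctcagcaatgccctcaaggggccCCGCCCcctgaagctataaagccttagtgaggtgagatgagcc
Eps8l1: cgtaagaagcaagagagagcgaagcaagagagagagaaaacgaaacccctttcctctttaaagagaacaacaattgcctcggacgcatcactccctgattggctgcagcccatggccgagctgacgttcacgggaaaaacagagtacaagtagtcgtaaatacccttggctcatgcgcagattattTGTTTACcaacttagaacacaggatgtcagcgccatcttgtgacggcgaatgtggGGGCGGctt
Slc25a33: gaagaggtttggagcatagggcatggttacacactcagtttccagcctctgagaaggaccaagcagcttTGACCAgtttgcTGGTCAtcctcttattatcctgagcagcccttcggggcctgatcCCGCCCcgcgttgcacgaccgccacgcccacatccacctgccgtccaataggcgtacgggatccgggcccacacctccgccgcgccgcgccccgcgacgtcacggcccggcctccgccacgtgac
Cited4: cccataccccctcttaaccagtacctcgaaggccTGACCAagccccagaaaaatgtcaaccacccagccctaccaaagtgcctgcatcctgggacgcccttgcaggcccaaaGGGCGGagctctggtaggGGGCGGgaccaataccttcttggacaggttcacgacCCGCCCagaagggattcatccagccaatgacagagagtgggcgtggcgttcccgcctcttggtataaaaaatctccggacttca

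The Gpr83 region held none of the 6 motifs searched and had 66.8% GC, against a median of 52.4% over all promoters. The Dapl1 region held the forkhead motif on the opposite strand, 164 bases before the start, and a GC box 43 bases before it. In the Eps8l1 region the forkhead motif lay 64 bases and the GC box 9 bases before the start. Eps8l1 also had promoters at chr7:4464485-4464734 and chr7:4464599-4464848, which held no forkhead motif. The Slc25a33 region held TGACCA at 2 places, the first 181 bases before the start, in opposite orientations. The Cited4 region held it once, 216 bases before the start, and held 3 GC boxes. TGTTTAC occurred in 3.17% of the 32851 promoters of this length, TGACCA in 11.4% and GGGCGG in 32.7%, the last including those of 6 of the 7 genes. Of the other 3 motifs, the AP-1 type TGANTCA (6.75% of promoters) occurred in Anxa2, and neither the Runx type TGTGGTT (4.40%) nor the ETS type GGAAGT (19.7%) occurred in any of the 7. A match describes letters only and no binding was measured. Chd3 was not matched.

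In the normalized table, the contrast that chose the genes, 5 were higher in KO (Dapl1, Slc25a33, Emid1, Cited4 and Anxa2) and 3 were lower (Gpr83, Eps8l1 and Chd3). No KO library overlapped a WT library for any of the 8, where 45.8% of 12253 genes did not overlap. In the authors' deposited table, 349 of 10396 genes with an adjusted p-value (3.36%) passed 0.05, and the 8 genes ranked between 4 (Emid1) and 26 (Cited4) by p. In the count table, 7 of the 8 had KO and WT libraries that did not overlap (65.2% of 14548 genes, 32.7% higher and 32.5% lower in KO), each in the direction of the normalized table; Eps8l1 overlapped. By edgeR 3 of the 8 were called between KO and WT there, 2 higher and 1 lower, where 12.9% of all genes were (9.41% higher and 3.46% lower), and nothing is read from that count because the same contrast chose the genes. Genes chosen for firm separation in the normalized table tend to have larger sizes there. Nothing is therefore read from the count-table sizes given below as a share of it.

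**Figure D2:**
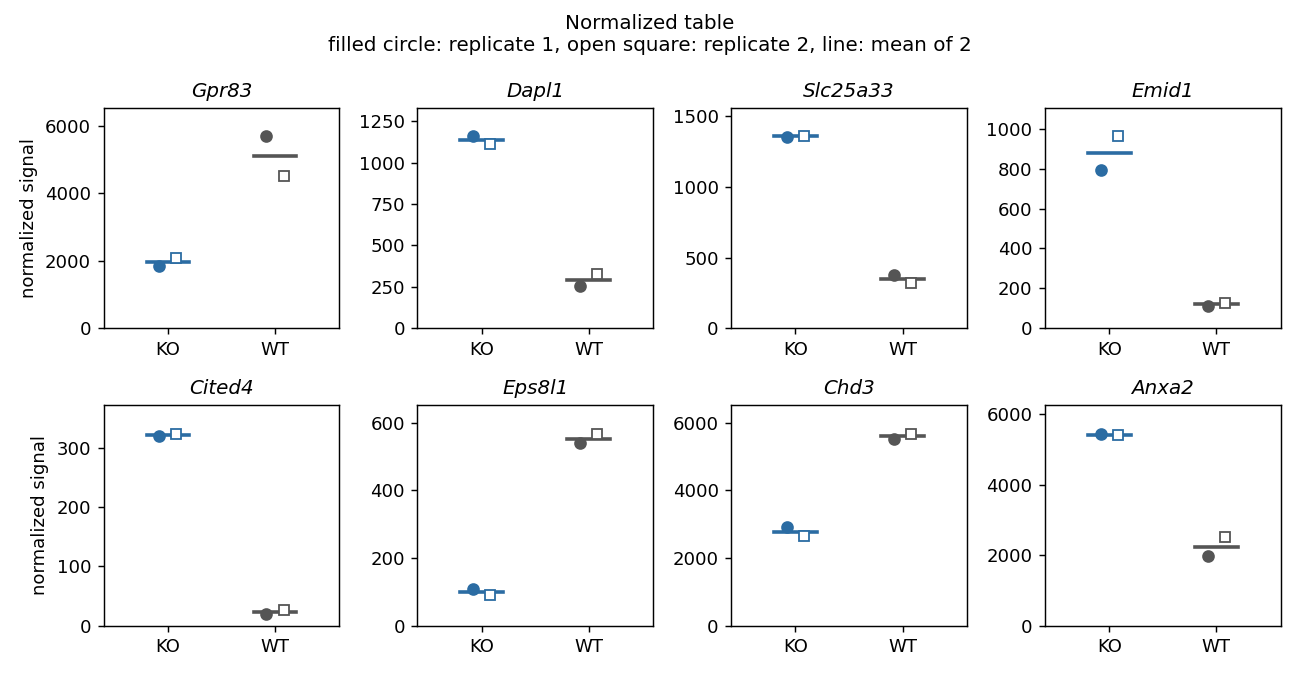
Normalized signal (y axis) of each gene in the KO and WT libraries of the normalized table, with the group mean as a line. The 2 KO libraries lay on one side of the 2 WT libraries for all 8 genes, which is how they were chosen.

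The libraries that the choice did not use are those of KO EAE, which stand in the count table only. Between KO EAE and KO, 0 of the 8 genes were called (0 at an unadjusted p under 0.05 and 0 by DESeq2), where edgeR with Benjamini-Hochberg adjustment called 2 of 14548 genes (0.0137%), 1378 genes had an unadjusted p under 0.05, and DESeq2 called 146. The libraries of KO EAE and KO did not overlap for 2 of the 8, Cited4 (higher) and Gpr83 (lower), where 38.3% of all genes did not overlap (17.0% higher and 21.3% lower). The median log2 change of the 8 was 0.03, against -0.0027 for all genes tested. Between KO EAE and WT, 5 of the 8 were called, 4 higher and 1 lower, where 9.36% of all genes were called (7.41% higher and 1.95% lower). Their libraries did not overlap for 7 of the 8, where 60.6% of all genes did not overlap (29.9% higher and 30.7% lower). The median log2 change of the 8 was 0.81, against -0.0066 for all genes tested. KO EAE against WT shares its WT libraries with KO against WT, and these WT libraries bear the names of those that chose the genes, so these 5 calls are not independent of the choice. The KO libraries in KO EAE against KO also bear such names, so that comparison is not independent of the choice either. For the KO EAE list and marker counts below, the shares over all genes are those given here.

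**Figure D3:**
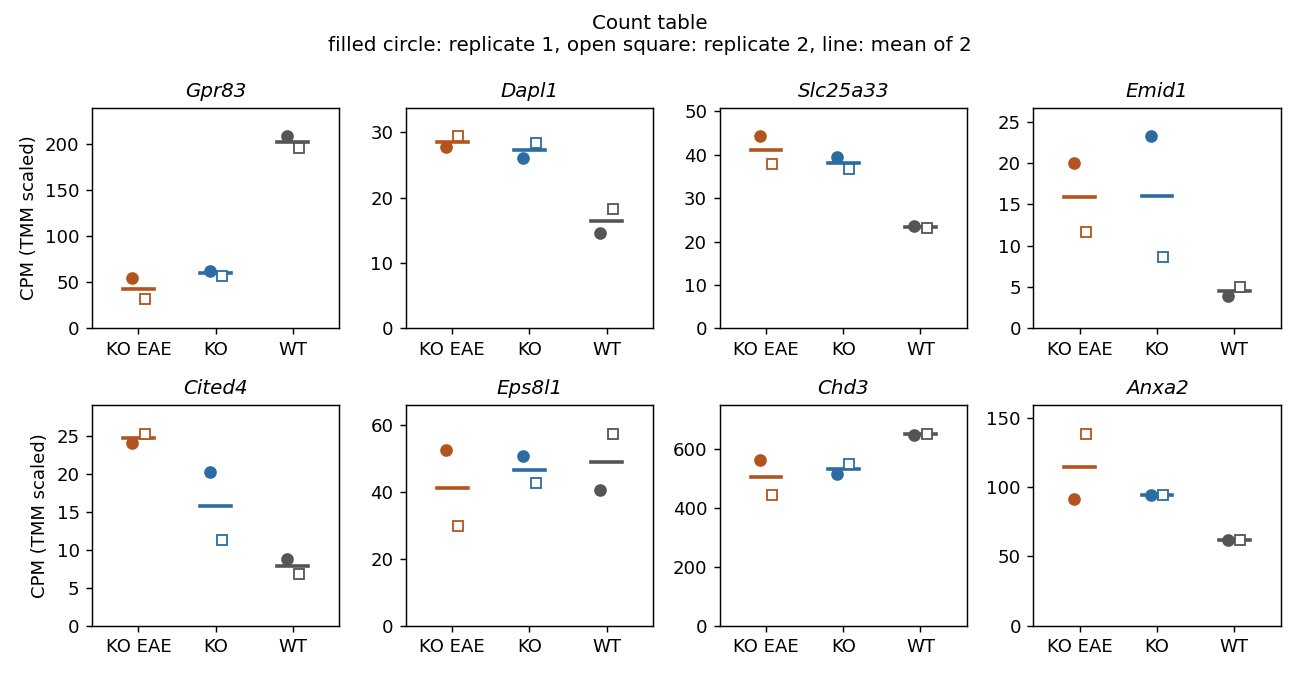
CPM after TMM scaling (y axis) of each gene in the KO EAE, KO and WT libraries of the count table, with the group mean as a line. Gpr83 stood at 31.9 to 62.0 CPM in all KO EAE and KO libraries and at 197 and 209 CPM in WT, while Eps8l1 overlapped across the 3 groups.

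Gpr83 (chromosome 9, 14860210 to 14870789, plus strand, mm10) is a receptor for PEN, a peptide cut from proSAAS. The normalized signal of Gpr83 was 1845 and 2072 in KO libraries and 5681 and 4519 in WT libraries, a log2 ratio of means of -1.38. In the count table it stood at 54.5 and 31.9 CPM in KO EAE libraries, 62.0 and 57.3 CPM in KO libraries and 209 and 197 CPM in WT libraries. Every KO EAE and KO library lay below both WT libraries, and both KO EAE libraries lay below both KO libraries. The log2 change was -2.23 ± 0.23 (SE) in KO EAE against WT (adjusted p = 0.00272, edgeR), a 4.69-fold lower level, and it stayed called when each of the 4 libraries was left out (adjusted p 0.000174 to 0.0153). Against KO it was -0.47 ± 0.23 in KO EAE (adjusted p = 0.568; 95% interval -1.02 to 0.09). Without KO EAE replicate 1 this difference was -0.90 and was called (adjusted p = 0.0372), and without KO EAE replicate 2 it was -0.13 (adjusted p = 0.702). KO against WT gave -1.76 ± 0.23. Gpr83 alone among the 8 had a larger log2 size between KO and WT in the count table than in the normalized table (128% of it).

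Of the 4 genes listed for proSAAS signalling 3 were tested, and edgeR called Gpr83 alone in KO EAE against WT, while DESeq2 called all 3. Gpr171, the receptor for the sister peptide bigLEN, had 57.1 and 63.2 CPM in KO EAE libraries, 51.3 and 64.4 CPM in KO libraries and 45.4 and 36.4 CPM in WT libraries. Its log2 change in KO EAE against WT was 0.56 (adjusted p = 0.0840). Within a list of 21 regulatory T cell signature genes that includes Gpr83 and Lrrc32, 11 fell and 0 rose in KO EAE against WT. Over all genes tested 1.95% were called lower there and 7.41% higher. The median log2 change of the list was -0.42 against -0.0066 for all genes. In KO EAE against KO 0 changed (4 at an unadjusted p under 0.05 and 1 by DESeq2). In KO against WT 13 of the list fell and 1 rose, where 3.46% of all genes were called lower and 9.41% higher. The largest fall in KO EAE against WT after Gpr83 was that of Ikzf4, an Ikaros family repressor (-1.36, adjusted p = 0.0347, edgeR). Next was Lrrc32, a surface protein that holds TGF-beta in its latent form (-1.30, adjusted p = 0.00101, edgeR). Foxp3 was at 163 and 149 CPM in KO EAE libraries, 165 and 155 CPM in KO libraries and 211 and 206 CPM in WT libraries. In the normalized table its signal was 2306 and 2061 in KO libraries and 2178 and 2420 in WT libraries. There KO and WT overlapped, with a log2 ratio of -0.07. In the count table Foxp3 was called lower in KO against WT (-0.38, adjusted p = 0.0254, edgeR). Its log2 change in KO EAE against WT was -0.42 (adjusted p = 0.0242), a smaller size than that of Gpr83; the difference between the 2 genes was not tested.

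Dapl1 (chromosome 2, 59484653 to 59505020, plus strand) encodes a small protein related to death-associated protein and is high in resting T cells. Its normalized signal was 1159 and 1114 in KO libraries and 253 and 328 in WT libraries, a log2 ratio of 1.97. In the count table it had 27.7 and 29.4 CPM in KO EAE libraries, 26.1 and 28.4 CPM in KO libraries and 14.5 and 18.2 CPM in WT libraries. All KO EAE and KO libraries lay above both WT libraries, and KO EAE and KO overlapped. The log2 change in KO EAE against WT was 0.80 ± 0.16 (adjusted p = 0.0312, edgeR). The call was lost without KO EAE replicate 2 (adjusted p = 0.0695), WT replicate 1 (0.189) or WT replicate 2 (0.0664), and with only the 2 groups in the fit (0.0902). KO EAE against KO gave 0.07 ± 0.16 (adjusted p = 0.894; 95% interval -0.32 to 0.45), and KO against WT gave 0.74 ± 0.16, or 37.5% of the log2 size in the normalized table.

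Of the 17 listed and tested genes of resting and central T cells, Dapl1 was the 1 that rose in KO EAE against WT, and 2 fell. Treml2, a receptor of the TREM family, had 140 and 136 CPM in KO EAE libraries, 119.9 and 123 CPM in KO libraries and 217 and 194 CPM in WT libraries. Its log2 change in KO EAE against WT was -0.58 (adjusted p = 0.00796, edgeR). The median of the list was -0.07, and 0 of the 17 changed in KO EAE against KO (0 at an unadjusted p under 0.05 and 0 by DESeq2).

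Slc25a33 (chromosome 4, 149744036 to 149774277, minus strand) encodes a carrier of pyrimidine nucleotides across the inner mitochondrial membrane. In the normalized table its signal was 1356 and 1358 in KO libraries and 377 and 320.0 in WT libraries, a log2 ratio of 1.96. The counts gave 44.3 and 37.9 CPM in KO EAE libraries, 39.4 and 36.8 CPM in KO libraries and 23.5 and 23.1 CPM in WT libraries. The KO EAE and KO libraries overlapped each other and all lay above WT. In KO EAE against WT the log2 change was 0.81 ± 0.12 (adjusted p = 0.0107, edgeR), and the call was lost without WT replicate 1 (0.0815) or WT replicate 2 (0.0825). Against KO the change was 0.11 ± 0.12 (adjusted p = 0.760; 95% interval -0.18 to 0.40). KO against WT gave 0.71 ± 0.12, or 36.1% of the log2 size in the normalized table. An annotated antisense gene overlaps 281 exon bases (14.9%), and with the strand setting unknown its reads cannot be told apart from those of Slc25a33. The same holds for 59 exon bases (0.978%) of Eps8l1 and 98 (2.63%) of Anxa2. Of 11 tested mitochondrial nucleotide and related carriers, Slc25a33 rose and Slc25a25, an ATP-Mg/phosphate carrier, fell in KO EAE against WT (-0.58, adjusted p = 0.0271), with a list median of 0.01. In KO EAE against KO 0 of the 11 changed by edgeR (2 at an unadjusted p under 0.05 and 0 by DESeq2).

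Emid1 (chromosome 11, 5106265 to 5152257, minus strand) encodes a secreted protein with an EMI domain and collagen repeats. Its normalized signal was 793 and 962 in KO libraries and 112 and 127 in WT libraries, a log2 ratio of 2.86. Counts were low, at 20.04 and 11.6 CPM in KO EAE libraries, 23.2 and 8.67 CPM in KO libraries and 3.88 and 5.02 CPM in WT libraries. The KO EAE and KO libraries all lay above WT, but replicates within each differed widely. KO EAE against WT gave a log2 change of 1.83 ± 0.52 that did not pass the test (adjusted p = 0.0893, edgeR), while DESeq2 called it (adjusted p = 0.00421). KO EAE against KO gave -0.01 ± 0.49 (adjusted p = 0.994, 95% interval -1.21 to 1.19). KO against WT, not called by edgeR (adjusted p = 0.0740), gave 1.84 ± 0.52. That value rested on the KO replicates, at 0.96 without KO replicate 1 and 2.38 without KO replicate 2, where edgeR called it (adjusted p = 0.0444). Of 5 tested EMI domain genes, edgeR called 0 in each of the 3 comparisons. The list median of 1.83 in KO EAE against WT was the value of Emid1 itself, so it says nothing about the other genes. In that comparison 3 of the 5 had an unadjusted p under 0.05 and DESeq2 called 3.

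Cited4 (chromosome 4, 120666572 to 120667820, plus strand), a gene of 1 exon, encodes a coactivator that binds the acetyltransferases Crebbp and Ep300. The normalized signal was 319 and 324 in KO libraries and 19.1 and 26.9 in WT libraries. The WT values came from 15 and 25 recovered reads, and the log2 ratio of 3.75 was the largest of the 8. The counts showed 24.0 and 25.3 CPM in KO EAE libraries, 20.3 and 11.3 CPM in KO libraries and 8.82 and 6.80 CPM in WT libraries. Both KO EAE libraries lay above both KO libraries, which in turn lay above both WT libraries. In KO EAE against WT the log2 change was 1.66 ± 0.31 (adjusted p = 0.0255, edgeR). The call was lost without KO EAE replicate 2 (0.0595), WT replicate 1 (0.0946) or WT replicate 2 (0.144). Against KO it was 0.64 ± 0.30 (adjusted p = 0.560; 95% interval -0.09 to 1.37), and KO against WT gave 1.02 ± 0.31, or 27.1% of the log2 size in the normalized table. Without KO replicate 1 these were 1.12 in KO EAE against KO and 0.53 in KO against WT. Without KO replicate 2 they were 0.29 in KO EAE against KO and 1.38 in KO against WT, the last being called (adjusted p = 0.0470). Of 6 tested CITED coactivators and partners, Cited4 was the 1 called in KO EAE against WT, and the list median was -0.05. In KO against WT edgeR did not call Cited4 (adjusted p = 0.0897). There it called 1 of the 6, Crebbp, lower (-0.55, adjusted p = 0.0209), where 3.46% of all genes were, and the list median was -0.25.

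Eps8l1 (chromosome 7, 4460674 to 4480487, plus strand) encodes a relative of Eps8, which links growth factor receptors to actin remodelling. By normalized signal it stood at 108 and 91.0 in KO libraries and 540 and 568 in WT libraries, a log2 ratio of -2.47. The counts gave no such gap, with 52.6 and 29.9 CPM in KO EAE libraries, 50.8 and 42.7 CPM in KO libraries and 40.8 and 57.5 CPM in WT libraries. All 3 groups overlapped. The log2 change was -0.25 ± 0.29 in KO EAE against WT (adjusted p = 0.623, edgeR; 95% interval -0.95 to 0.45) and -0.18 ± 0.29 in KO EAE against KO (adjusted p = 0.836; 95% interval -0.88 to 0.52). KO against WT gave -0.07 ± 0.29 with an interval of -0.77 to 0.63. That interval does not reach the -2.47 of the normalized table, but the -2.47 belongs to the contrast that chose the gene. Of the 5 tested genes of the EPS8 family and its partners, edgeR called 0 in each of the 3 comparisons; in KO EAE against WT 1 had an unadjusted p under 0.05 and DESeq2 called 1.

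Chd3 (chromosome 11, 69343273 to 69369406, minus strand) encodes the Mi-2 alpha helicase. The KO and WT signals in the normalized table were 2921 and 2638 for KO libraries and 5515 and 5670 for WT libraries, a log2 ratio of -1.01. It was at 563 and 445 CPM in KO EAE libraries, 514 and 548 CPM in KO libraries and 647 and 651 CPM in WT libraries. All KO EAE and KO libraries lay below WT, and the KO EAE pair spanned the KO pair. KO EAE against WT gave a log2 change of -0.37 ± 0.13 that did not pass the test (adjusted p = 0.156, edgeR). DESeq2 called it (adjusted p = 0.0304), and so did edgeR without KO EAE replicate 1 (-0.55, adjusted p = 0.00803). Without KO EAE replicate 2 it was -0.20 (adjusted p = 0.387). Against KO the change was -0.08 ± 0.13 (adjusted p = 0.854, 95% interval -0.40 to 0.25). KO against WT gave -0.29 ± 0.13 and was not called (adjusted p = 0.222, edgeR). Of the 15 tested NuRD genes, edgeR called 0 in KO EAE against WT (3 at an unadjusted p under 0.05 and 1 by DESeq2), with a list median of 0.0043, and 0 in KO EAE against KO (1 at an unadjusted p under 0.05 and 0 by DESeq2). In KO against WT edgeR called 1 of the 15, Chd5, lower (-1.71, adjusted p = 0.0311), where 3.46% of all genes were. Chd5 levels were low, at 1.36 and 2.46 CPM in KO libraries and 5.69 and 6.74 CPM in WT libraries.

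Anxa2 (chromosome 9, 69453620 to 69491795, plus strand) encodes an annexin that binds phospholipid with calcium, pairs with S100a10 and is also abundant in macrophages. Its normalized signal was 5438 and 5394 in KO libraries and 1962 and 2517 in WT libraries, a log2 ratio of 1.27. The counts gave 91.2 and 138 CPM in KO EAE libraries, 94.6 and 94.2 CPM in KO libraries and 62.1 and 61.7 CPM in WT libraries. Every KO EAE and KO library lay above WT, and KO EAE replicate 2 stood above the rest. The log2 change in KO EAE against WT was 0.89 ± 0.19 (adjusted p = 0.0358, edgeR). It was not called without WT replicate 1 (0.168) or WT replicate 2 (0.158), nor with only the 2 groups in the fit (0.113). Without KO EAE replicate 2 the change was 0.56 and was called (adjusted p = 0.0101). Against KO the change was 0.28 ± 0.18 (adjusted p = 0.625; 95% interval -0.16 to 0.73), and it was called without KO EAE replicate 1 (0.56, adjusted p = 0.0389) and was -0.05 without KO EAE replicate 2 (adjusted p = 0.871). KO against WT gave 0.61 ± 0.19 and was not called (adjusted p = 0.0888, edgeR). Of 13 tested annexins and S100 partners, 2 rose in KO EAE against WT: Anxa2 and Anxa3, another calcium-dependent annexin (3.32, adjusted p = 0.00302). S100a10 itself gave 0.05 (adjusted p = 0.750). In KO against WT 2 of the 13 rose, Anxa3 (3.97, adjusted p = 0.00113, edgeR) and Anxa9 (1.59, adjusted p = 0.0471, edgeR). Over all genes 9.41% were called higher there. In WT libraries levels were low, at 0.938 and 1.41 CPM for Anxa3 and 1.88 and 1.47 CPM for Anxa9. Of the 13 myeloid markers, 12 rose in KO EAE against WT (median log2 change 2.57) and 0 changed against KO. Over all genes tested 7.41% rose in KO EAE against WT. KO EAE replicate 2 also had the highest sum of neutrophil markers, at 72.0 CPM, against 0.674 to 11.9 CPM in the 5 other libraries. The part of myeloid and neutrophil markers in the Anxa2 values was not tested.

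**Figure D4:**
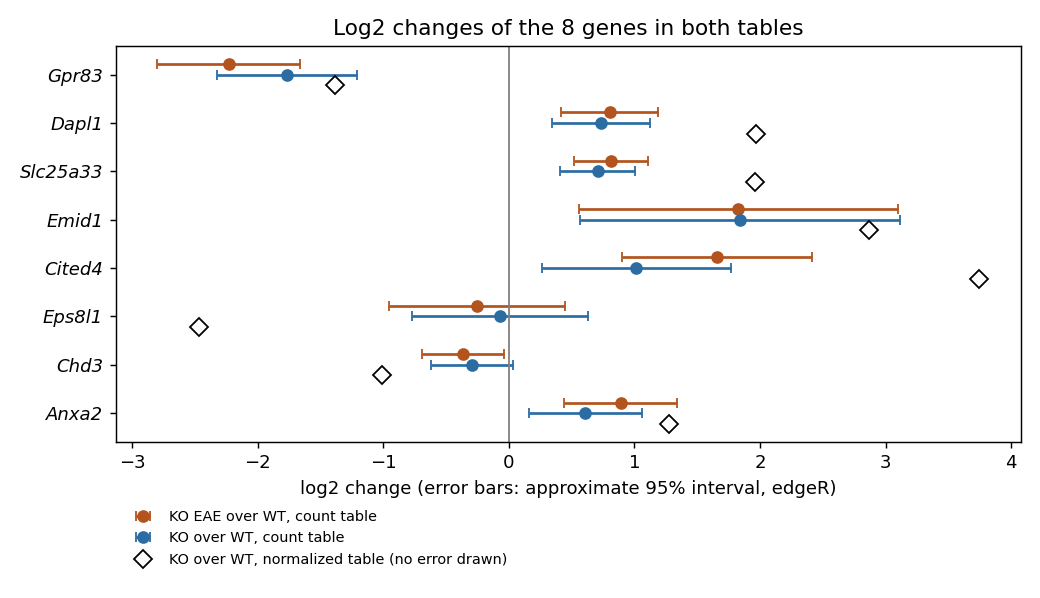
Log2 change (x axis) of each gene in KO EAE over WT and KO over WT in the count table, with approximate 95% intervals, and in KO over WT in the normalized table as open diamonds. The count-table values were nearer 0 than the diamonds for all genes except Gpr83, and both Eps8l1 intervals included 0. The diamonds belong to the contrast that chose the genes.

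**Figure D5:**
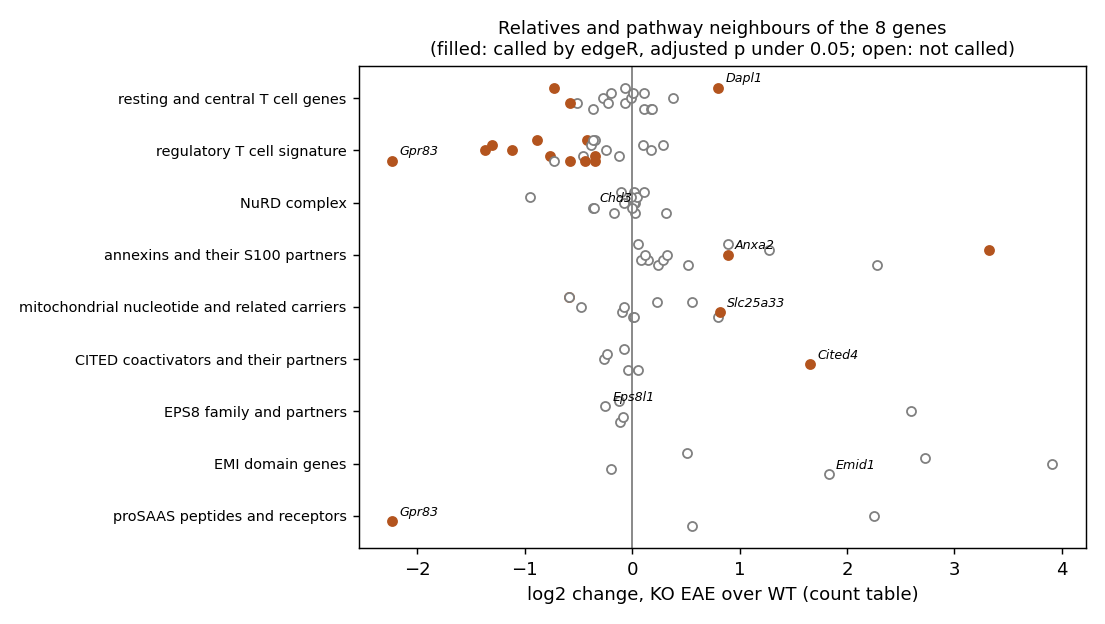
Log2 change in KO EAE over WT (x axis) of the tested genes of 9 lists, with called genes filled and the 8 genes named. In the regulatory T cell signature 11 of 21 genes were called and all 11 were lower, while 0 of 15 NuRD genes were called. Over all genes tested 1.95% were called lower and 7.41% higher.

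Levels per length, given as mean CPM per kilobase of exon in the count table, placed Chd3 highest in each group, at 59.7 in KO EAE, 62.9 in KO and 76.9 in WT. Gpr83 was the second highest in WT, at 39.8, above Dapl1 at 24.1. In KO EAE it was the sixth, at 8.48, where its libraries overlapped those of Eps8l1 at 6.84, and in KO it was also the sixth, at 11.7, where it overlapped Cited4 at 12.6. Dapl1 held the second place in KO EAE, at 42.0, and in KO, at 40.1. Anxa2 followed in both groups, at 30.8 in KO EAE and 25.3 in KO. Emid1 was the lowest of the 8 throughout, at 5.48 in KO EAE, 5.52 in KO and 1.54 in WT, and it overlapped Eps8l1 in KO EAE and KO. In the normalized table, as mean signal per kilobase, Dapl1 was highest in KO, at 1674, and Gpr83 was highest in WT, at 1001.

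Genes with the most similar pattern were sought over the 6 libraries of the count table among 10539 genes with at least 5 CPM on average, by the root mean square (RMS) difference of centred log2 levels. Gpr83 was nearest to Gata1 and Ppm1l, each at 0.191. Dapl1 was nearest to Mccc2 (0.0676) and Megf9 (0.0791), and Slc25a33 to Mboat1 (0.0491) and Mfsd6 (0.0599). For Emid1 they were Pdgfb (0.355) and Cxxc5 (0.376), the largest distances of the 8. Cited4 was nearest to Ttbk1 (0.110) and Chst11 (0.208), Eps8l1 to Pex26 (0.0816) and Fbxo10 (0.0832), Chd3 to Ercc5 (0.0212) and Man1a (0.0223), and Anxa2 to Incenp (0.0382) and Gas2l3 (0.0440). With a pseudocount of 5 CPM both neighbours were the same genes for Gpr83, Slc25a33 and Cited4, and neither was for Eps8l1. No 2 of the 8 genes were among each other's nearest.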

How the data were processed

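Per the labels' protocols, column-purified RNA of sorted regulatory T cells went into NEBNext Ultra II libraries, which a NextSeq500 instrument read. HISAT2, HTSeq, DESeq2 and the mm10 genome are named per the submitters' processing notes; the sources used here give no versions, annotation or strand setting. The authors deposited whole-number read counts for 6 libraries, a normalized signal (counts divided by size factors) for the KO and WT libraries, and their own comparison of KO with WT, which holds mean signals, log2 fold changes and their errors, a score for each test and p-values, per the file headers. All normalized values (100%, tolerance 0.02 reads) were whole multiples of 1 read. DESeq2 on these recovered reads called 379 genes where edgeR called 12; this fit was chosen after the data were seen.

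Rows that name no gene (25 and 27 rows, at most 0.217% and 0.284% of reads) were left out. Replicates differed by more than sampling noise (chi-square per degree of freedom 16.5 or more). Counts were tested with edgeR 4.0.16 in R 4.3.3 (filterByExpr with minimum count 10 and minimum total 15, TMM, glmQLFit and glmQLFTest, all 6 libraries in 1 fit without a block, Benjamini-Hochberg adjustment over 14548 genes, threshold 0.05). The biological coefficient of variation was 0.178, and 3 reads equal 0.177 to 0.205 CPM (counting error only). SEs are approximate (size of the log2 change over the square root of its F statistic) and 95% intervals use them. Normalized-table ratios used a pseudocount of 1, and nearest genes one of 0.5 CPM. Alternatives were RLE or library-size scaling, no filter, DESeq2 1.42.0, only 2 groups, a replicate block and each library left out, for which the lone library left in a group is assumed to vary like the other groups. Gene positions and exon lengths came from GENCODE M21 (mm10). The 8 genes, the lists and the marker genes were chosen with earlier results of these data known. Named genes were the 8, Bcl11b, Foxp3, the called list genes with the largest changes and the 2 nearest genes of each; Gpr171, S100a10, Fcgr3 and Foxp3's values beside Gpr83 were added after values were seen. The values of 1 called list gene are not reported here.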

Additional observations from a re-analysis of the deposited data

How the results depend on the processing

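Counts of called genes moved with the processing. For KO EAE against KO, 2 genes were called, against 146 by DESeq2, 3 without the filter, 0 with only the 2 groups (940 at an unadjusted p under 0.05) and 0 with the replicate block (1360 at an unadjusted p under 0.05), and 0 to 313 with 1 library left out, the 313 without KO EAE replicate 1. For KO EAE against WT, 1362 were called, against 2257 by DESeq2, 782 with only the 2 groups, 1301 with the replicate block and 603 to 3762 with 1 library left out, the 3762 without KO EAE replicate 1. For KO against WT, 1873 were called, against 2477 by DESeq2, 3121 with only the 2 groups, 1668 with the block and 846 to 917 with 1 library left out. The labels do not say that replicate numbers pair the libraries, and same-numbered deviations correlated at 0.211 (KO EAE and KO), -0.137 (KO EAE and WT) and 0.0213 (KO and WT). In the authors' comparison 349 genes passed, against 12 by edgeR on the recovered reads.

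The sign of small changes turned for some of the 8 genes. With 1 library left out, the log2 change in KO EAE against KO ranged from -0.0036 (without KO replicate 1) to 0.13 for Dapl1, from -0.0052 (without KO EAE replicate 1) to 0.22 for Slc25a33, from -0.55 to 0.86 (without KO replicate 1; 0.32 without KO EAE replicate 2) for Emid1, from -0.64 to 0.17 (without KO EAE replicate 2) for Eps8l1, from -0.25 to 0.0837 (without KO EAE replicate 2) for Chd3 and from -0.0505 (without KO EAE replicate 2) to 0.56 for Anxa2. With the replicate block Emid1 gave 0.0502. Eps8l1 ranged from -0.72 to 0.10 in KO EAE against WT and from -0.28 to 0.20 in KO against WT; it turned without WT replicate 2 in both (0.0224 and 0.20), without KO EAE replicate 2 (0.10) and without KO replicate 2 (0.0482). The KO against WT call was lost for Gpr83 without KO replicate 1 (adjusted p = 0.0622) or KO replicate 2 (0.0687), and for Dapl1 (0.0673 to 0.200) and Slc25a33 (0.0710 to 0.115) with any 1 of the 4 libraries left out. The causes were not tested. With 2 libraries a group and 3 residual degrees of freedom, a change that misses the threshold is not shown to be absent.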
